A study of Homo sapiens with 4 samples.

Results

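The genes described here are 2 AKT kinases (AKT1, AKT2), the AKT coactivator TCL1A, 3 FOXO transcription factors (FOXO1, FOXO3, FOXO4) and 4 genes known as FOXO targets (KLF2, PIK3IP1, CCNG2, IRS2). They were chosen by name, and all 10 were found among the 25277 gene symbols of the expression table. Expression was measured by RNA sequencing in cultures labelled Mino and Z138, established human cell lines of mantle cell lymphoma, a B cell cancer. Both lines were stable transfectants with a doxycycline-inducible (tet-on) vector, grown in medium with 20% serum and given doxycycline for 48 hours. Each line was grown once with a small hairpin targeting BTK and once with a control vector named sc4. Where 2 values are given for a line, the control library comes first and the hairpin library second. BTK is a kinase downstream of the B cell receptor. What sc4 expresses is not given in the labels. There were 4 libraries, 1 per line and vector, so a value has no replicate of its own, and no culture labelled with another BTK hairpin was analysed here. Values are FPKM, that is, fragments scaled to transcript length and to the mapped fragments of the library. Such values can be compared between genes, but the read depth behind them is unknown. Cultures are bulk samples, so fewer cells with a transcript and less transcript per cell cannot be told apart.

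AKT kinases act downstream of phosphoinositide 3-kinase (PI3K), which B cell receptor signalling can switch on. Active AKT phosphorylates FOXO factors, which then leave the nucleus and stop acting on their target genes, so FOXO activity is mainly set on the protein and much of it cannot be read from FOXO mRNA. TCL1A binds AKT and promotes its activation, and it is a known oncogene of B and T cells. FOXO1 is needed for early B cell development and for the identity of mature B cells.

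The lines were checked first. BTK was at 37.0 and 9.84 FPKM for Mino, and 51.0 and 12.4 FPKM for Z138, so the hairpin libraries held 26.6% and 24.3% of the control level. All 8 B cell and mantle cell markers were in the table, and 7 or 8 of them were above 1 FPKM in each library. CD5 was the marker below 1 FPKM, at 0.0751 and 0.0531 FPKM in the Z138 libraries. CCND1, the cyclin gene that defines most mantle cell lymphomas, was at 591 and 600 FPKM in the Z138 control and hairpin libraries but only at 3.18 and 2.62 FPKM in Mino. SOX11, another mantle cell marker, was at 19.8 to 23.6 FPKM in all 4 libraries. Markers of myeloid and erythroid cells summed to at most 0.482 FPKM per list, and the 3 T cell markers in the table to at most 2.17 FPKM, most of it CD3E in Z138. The Mino libraries also held the epithelial markers KRT8 (25.5 and 22.5 FPKM) and EPCAM (7.29 and 7.56 FPKM), which were below 0.5 FPKM in Z138. The germinal centre factor BCL6 was at 78.1 and 61.2 FPKM in Mino and below 1 FPKM in Z138. Low CCND1 and the KRT8 and EPCAM levels are not typical of mantle cell lymphoma, the label of the Mino libraries. All 8 B cell and mantle cell markers were above 1 FPKM in both Mino libraries, with CD5 at 2.33 and 1.70 FPKM. That cut also counts CCND1, at 3.18 and 2.62 FPKM in Mino beside 591 and 600 FPKM in Z138. The identity of that line was not tested, and every comparison of Z138 with Mino is one of the libraries so labelled.

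The difference between the lines was by far the main feature of TCL1A. It was at 673 and 502 FPKM for Mino, and 1.84 and 1.10 FPKM for Z138. Ranked by FPKM among all symbols, it stood at place 132 and place 161 in the Mino libraries, and at 9758 and 10583 in the Z138 libraries. The Mino level was 365 times the Z138 level between the control libraries and 457 times between the hairpin libraries. On the log2(FPKM + 1) scale Z138 was lower by a difference of −7.90 (SE 0.12, adjusted p = 5.31e-08 in limma, lower in Z138 with both vectors). This test, like those on the lines that follow, compares 2 libraries per line, and the libraries of a line differ in vector.

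TCL1B, a close relative of TCL1A, showed the opposite pattern. It was at 1.86 and 2.21 FPKM for Mino, and 21.3 and 17.1 FPKM for Z138, a difference of 2.73 (SE 0.16, adjusted p = 2.89e-06 in limma). In RefSeq's order of genes on chromosome 14 (GRCh38.p14), leaving out unnamed loci, TCL6, TCL1B and TCL1A follow each other. The noncoding gene TCL6 was at 0.119 and 0.0842 FPKM for Mino, and 0.626 and 0.592 FPKM for Z138. Its values were thus also higher in Z138, but TCL6 was below 1 FPKM in every library and was not tested. Beyond TCL1A, the next named gene in that order, TUNAR, was at 0.762 and 0.546 FPKM for Mino, and 0.00771 and 0.0334 FPKM for Z138. TUNAR was likewise below 1 FPKM throughout and not tested. MTCP1, the third gene of the TCL1 family, lies on another chromosome and was at 1.60, 1.38, 0.921 and 0.498 FPKM, in the order Mino then Z138. Of the summed FPKM of the 3 family genes, TCL1A made up 99.5% and 99.3% in Mino, and TCL1B made up 88.5% and 91.4% in Z138. The summed level itself was 676 and 505 FPKM in Mino against 24.1 and 18.6 FPKM in Z138.

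**Figure D1:**
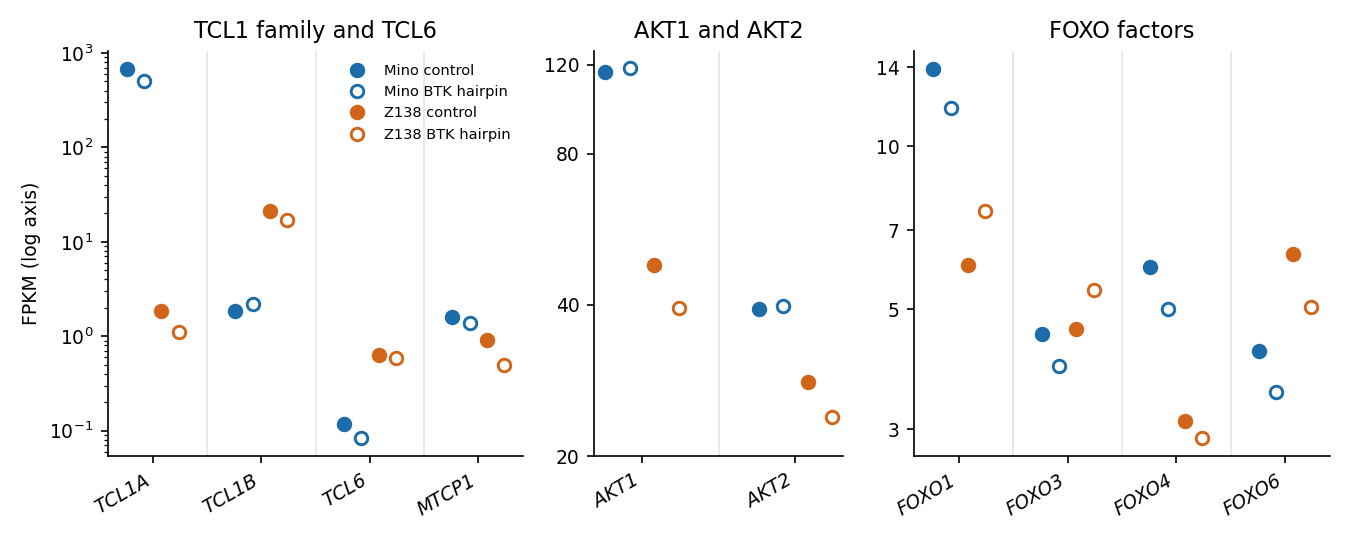
FPKM (log axis) of the TCL1 family with the neighbouring TCL6, of AKT1 and AKT2 and of the FOXO factors, 1 point per library (filled, control; open, BTK hairpin; blue, Mino; orange, Z138). TCL1A is at 673 and 502 FPKM for Mino, and 1.84 and 1.10 FPKM for Z138, while TCL1B is at 1.86 and 2.21 FPKM for Mino, and 21.3 and 17.1 FPKM for Z138.

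The 100 bases before the annotated starts of TCL1A and TCL1B are shown because these neighbours had opposite patterns between the lines. They come from RefSeq on GRCh38.p14, the TCL1A stretch from the minus strand of chr14:95714126-95714225 and the TCL1B stretch from the plus strand of chr14:95686326-95686425, both read 5′ to 3′. Capitals mark a TATA box core.
TCL1A: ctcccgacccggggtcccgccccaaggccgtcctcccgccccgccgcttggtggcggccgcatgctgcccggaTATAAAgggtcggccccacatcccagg
TCL1B: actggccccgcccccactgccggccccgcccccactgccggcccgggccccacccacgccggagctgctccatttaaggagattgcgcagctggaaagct

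The letters TATAAA, searched on both strands, began 27 bases before the start of TCL1A, and the TCL1B stretch does not hold them. They occurred in 11.5% of the 35116 RefSeq windows of 300 bases around gene starts. TCL1A was the only gene among the 10 with this match, and a match is a description of the letters only.

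TCL1A was also the member with the lowest ratio of hairpin to control, and the only one whose ratio was below −0.40 in each line. The log2 ratio was −0.42 in Mino and −0.44 in Z138, that is, the hairpin libraries held 74.6% and 59.5% of the control FPKM. The mean over both lines was −0.43 (SE 0.12, unadjusted p = 0.00753, adjusted p = 1.00 in limma, below 0 in 2 of 2 lines), so TCL1A did not pass the threshold over all symbols. It did not pass under any of 8 alternative settings either, where its adjusted p was 0.318 or more. Of the 11484 symbols that averaged 1 FPKM or more, 27 had a ratio at or below −0.42 in both lines, TCL1A included, which is 0.235%. That count was made after the values of TCL1A had been seen. The Z138 ratio rests on levels near 1 FPKM, where adding 1 before taking logs understates a change. With a pseudocount of 0.1 in its place the Z138 ratio was −0.70 and the Mino ratio stayed at −0.42.

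The symbols whose profile over the 4 libraries was most like that of TCL1A were sought among 7948 named genes averaging 5 FPKM or more. Likeness was the Euclidean distance between log2(FPKM + 1) profiles, each centred on its own mean. The nearest were ZYX, a focal adhesion protein gene (distance 1.41), GYPC, a membrane skeleton protein gene (1.42), and CD44, a hyaluronan receptor gene (1.53). ZYX was at 102 and 101 FPKM for Mino, and 0.146 and 0.0628 FPKM for Z138. No other gene among the 7948 came closer than 1.41, so the likeness is only one of high in Mino and very low in Z138.

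AKT1, a kinase of growth and survival signalling, was at 116 and 118 FPKM for Mino, and 47.9 and 39.5 FPKM for Z138. Both Mino libraries were above both Z138 libraries, and the difference of Z138 from Mino was −1.41 (SE 0.13, adjusted p = 3.24e-05 in limma). AKT2, which serves insulin signalling in other tissues, was at 39.3 and 39.8 FPKM for Mino, and 28.1 and 24.0 FPKM for Z138, a difference of −0.59 (SE 0.13, adjusted p = 0.00405 in limma).

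AKT1 was above AKT2 in every library. The gene nearest in profile to AKT1 was CD151, a tetraspanin, at a distance of 0.014, with 87.3, 88.8, 35.6 and 29.7 FPKM, in the order Mino then Z138. Next came CCBL1 (0.066) and DPF2 (0.066).

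With the hairpin, AKT1 and AKT2 had log2 ratios of 0.03 and 0.02 in Mino and of −0.27 and −0.22 in Z138. Their means over both lines were −0.12 (SE 0.13) and −0.10 (SE 0.13), and neither passed in limma (adjusted p = 1.00 for both, below 0 in 1 of 2 lines). In Mino the hairpin libraries held 102% and 101% of the control FPKM of AKT1 and AKT2, and in Z138 they held 82.3% and 85.3%.

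FOXO1 was at 13.9 and 11.8 FPKM for Mino, and 6.03 and 7.61 FPKM for Z138. Both Mino values were above both Z138 values, a difference of −0.83 (SE 0.16, adjusted p = 0.0022 in limma). FOXO4, a less abundant relative, was at 5.98 and 4.999 FPKM for Mino, and 3.11 and 2.89 FPKM for Z138, a difference of −0.69 (SE 0.14, adjusted p = 0.0026 in limma). FOXO3, which guards stem cells and lymphocytes against stress, was at 4.51 and 3.93 FPKM for Mino, and 4.60 and 5.42 FPKM for Z138. Its difference of 0.20 did not pass (SE 0.15, adjusted p = 0.265 in limma). FOXO3 has a near-identical copy, FOXO3B, at 0.0294 to 1.04 FPKM, and the way reads were shared out between the copies is not stated, so the FOXO3 values are uncertain.

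FOXO6, the remaining FOXO gene, was at 4.19 and 3.52 FPKM for Mino, and 6.32 and 5.04 FPKM for Z138 (difference 0.46, SE 0.14, adjusted p = 0.0183 in limma). FOXO1 made up 48.6% of the summed FOXO level in both Mino libraries. In Z138 it made up 30.1% in the control library, next to 31.5% for FOXO6, and 36.3% in the hairpin library, next to 25.9% for FOXO3. The order in Mino was FOXO1, FOXO4, FOXO3, FOXO6 in both libraries, whereas in Z138 FOXO6 was first in the control library and FOXO1 in the hairpin library, with FOXO4 last in both. With 1 library per vector, changes of place between FOXO1, FOXO3 and FOXO6 in Z138 have no replicate check. The summed FOXO level was 28.6 and 24.2 FPKM in Mino and 20.1 and 21.0 FPKM in Z138.

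**Figure D2:**
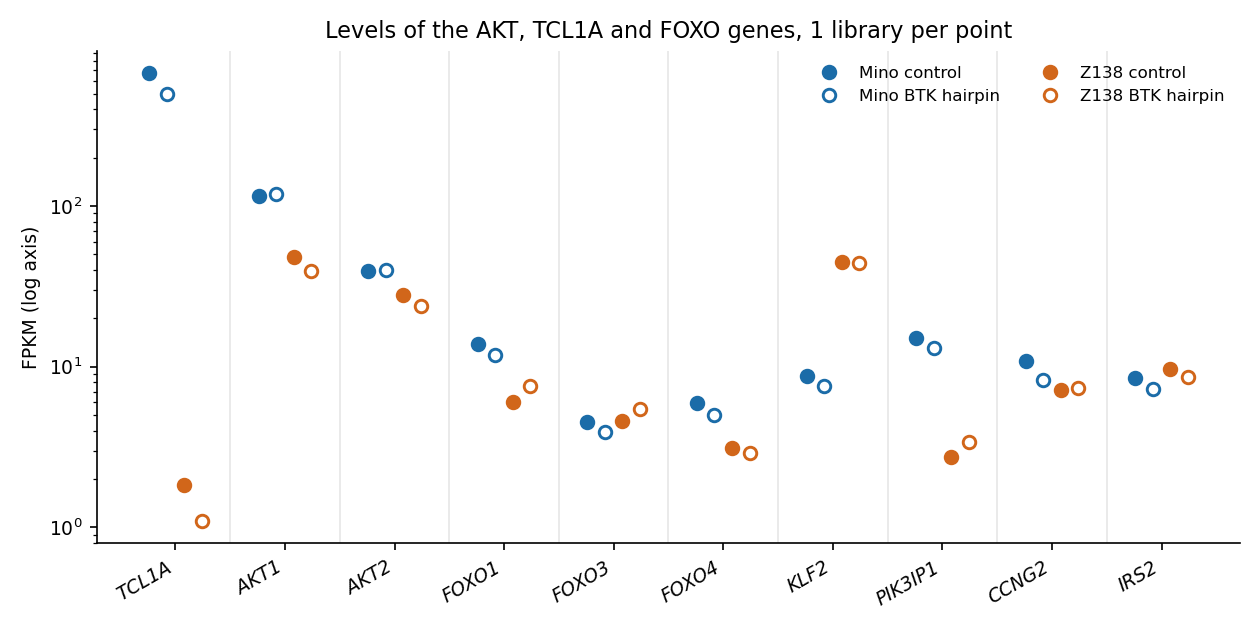
FPKM (log axis) of the 10 genes, 1 point per library (filled, control; open, BTK hairpin; blue, Mino; orange, Z138). The lines are far apart for TCL1A, KLF2 and PIK3IP1, while those of FOXO3 and IRS2 lie close together, at 3.93 to 5.42 FPKM and 7.31 to 9.73 FPKM over the 4 libraries.

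The 4 known FOXO targets did not share a pattern between the lines. KLF2, a transcription factor that holds lymphocytes quiescent and directs their traffic, was at 8.70 and 7.53 FPKM for Mino, and 44.8 and 44.3 FPKM for Z138. It was thus 5.16 times higher in Z138 between controls and 5.89 times higher between hairpin libraries (difference 2.33, SE 0.13, adjusted p = 2.31e-06 in limma). PIK3IP1, a membrane protein that restrains PI3K, went the other way. It was at 15.0 and 13.0 FPKM for Mino, and 2.72 and 3.39 FPKM for Z138, so Mino was 5.52 and 3.83 times higher (difference −1.89, SE 0.16, adjusted p = 1.82e-05 in limma).

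CCNG2, an unusual cyclin linked to cell cycle arrest, was at 10.9 and 8.29 FPKM for Mino, and 7.15 and 7.40 FPKM for Z138, and its difference of −0.35 did not pass (SE 0.15, adjusted p = 0.074 in limma). IRS2, an adaptor that couples insulin and cytokine receptors to PI3K, was at 8.56 and 7.31 FPKM for Mino, and 9.73 and 8.62 FPKM for Z138, and its difference of 0.19 did not pass (SE 0.13, adjusted p = 0.238 in limma). For IRS2 both Z138 values lay just above both Mino values. Nearest in profile to KLF2 were RRP12 (distance 0.024), IFI30 (0.061) and HNRNPM (0.12), and nearest to PIK3IP1 were MTA3 (0.048), HIST1H2BJ (0.055) and JADE2 (0.067). How often distances of this size arise in 4 values from 2 lines was not tested, so the likeness is a description only.

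FOXO factors bind a forkhead core, so the letters GTAAACA and ATAAACA were searched on both strands in the 16 RefSeq windows of the 10 genes. GTAAACA was found for FOXO4 and PIK3IP1 and in 3.42% of all windows. ATAAACA was found for FOXO3 and in 4.24% of all windows. The 30 bases around each match are shown on the gene's strand on GRCh38.p14 (FOXO3, plus strand, chr6:108560672-108560701; FOXO4, plus strand, chrX:71095863-71095892; PIK3IP1, minus strand, chr22:31292454-31292483). Capitals mark the match, which for PIK3IP1 is read from the opposite strand.
FOXO3: ccgagcgaaacATAAACAaacgcacgcaca
FOXO4: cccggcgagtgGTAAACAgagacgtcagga
PIK3IP1: taaagagaggcTGTTTACcagaacagcata

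The FOXO3 match began 234 bases before one of its annotated starts, and the FOXO4 and PIK3IP1 matches lay 24 and 17 bases into the transcribed side. The windows of KLF2, CCNG2 and IRS2 do not hold these letters, which says nothing of sites elsewhere.

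Across the lines, 6 of the 10 genes were lower in Z138 (TCL1A, AKT1, AKT2, FOXO1, FOXO4, PIK3IP1) and 1 was higher (KLF2) at an adjusted p under 0.05 in limma, and 3 did not pass. Over all 11484 symbols tested, 38.8% were called lower in Z138 and 28.7% higher, so a call in either direction was common. The median difference of all symbols was −0.12. When the libraries were set to the same median, differences shifted upward by 0.16, the calls over all symbols became 3836 lower and 4179 higher (4452 and 3293 as deposited), and FOXO3 (difference 0.36, adjusted p = 0.0385 in limma) and IRS2 (0.35, adjusted p = 0.0357) passed as higher in Z138. The 7 calls above kept their direction and passed in that setting too.

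The same comparison was made for 46 other FOXO targets. Of these, 33 had a mean of at least 1 FPKM, and 18 were called lower in Z138 and 7 higher in limma. Over all symbols, 38.8% were called lower and 28.7% higher. The median difference of the 33 was −0.49, beside −0.12 over all symbols. The list mixes genes with different roles. The death gene BCL2L11 was at 87.1 and 65.3 FPKM for Mino, and 0.172 and 0.0803 FPKM for Z138 (difference −6.09, SE 0.14). GADD45A, a growth arrest gene, was at 46.4 and 37.3 FPKM for Mino, and 0.912 and 0.955 FPKM for Z138 (−4.46, SE 0.15). SESN3, PINK1, BBC3 and CAT had differences of −2.40, −2.33, −2.06 and −2.01. On the other side stood the insulin receptor gene INSR (3.34), at 9.36 and 9.32 FPKM in Z138 and 0.0203 and 0.0177 FPKM in Mino, the lymphocyte egress receptor gene S1PR1 (2.73), at 17.4 and 20.7 FPKM in Z138, and the cell cycle inhibitor genes CDKN1A (1.46) and CDKN1B (0.43). S1PR1, which KLF2 is known to activate, was thus higher in the same line as KLF2. The genes named in this paragraph for the line comparison were chosen after their values had been seen, and each passed in limma at an adjusted p of 0.0125 or less.

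**Figure D3:**
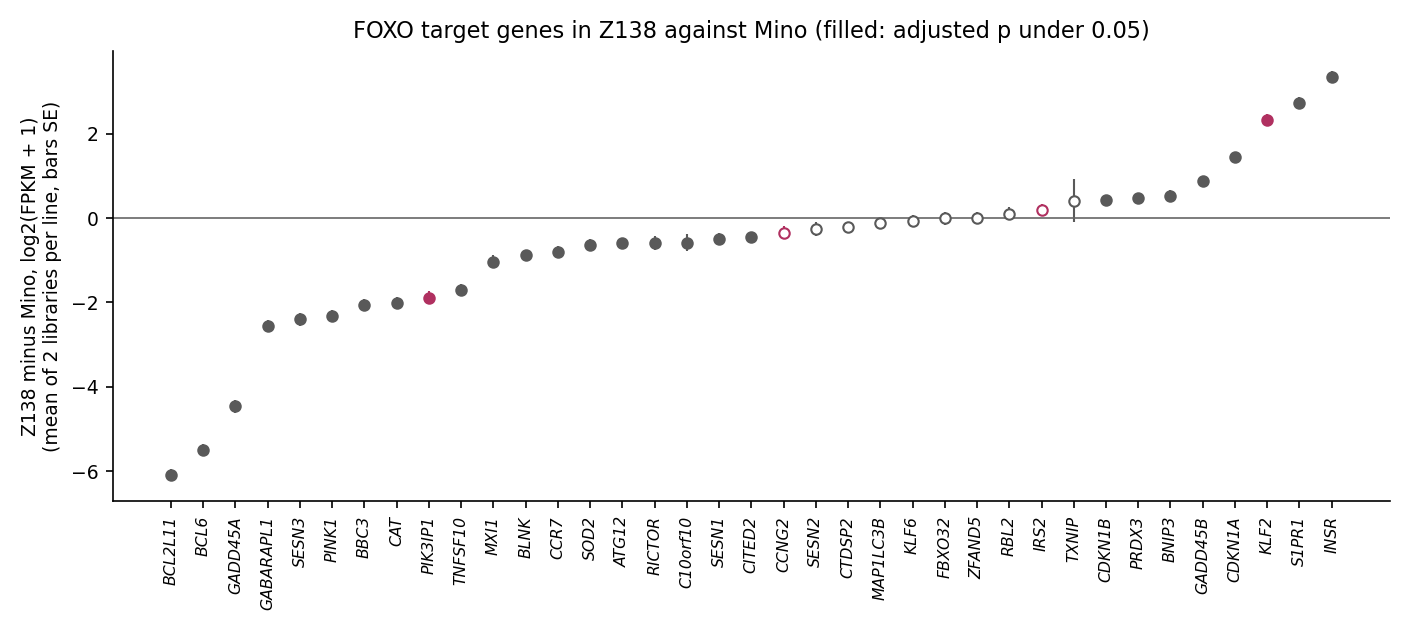
Difference of Z138 from Mino in log2(FPKM + 1) for the 33 FOXO targets with a mean of at least 1 FPKM and for KLF2, PIK3IP1, CCNG2 and IRS2 (red), with the limma SE as bars; filled points passed at an adjusted p under 0.05. The values run from −6.09 for BCL2L11 to 3.34 for INSR, with PIK3IP1 at −1.89 and KLF2 at 2.33.

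Another list held 36 genes of PI3K and AKT signalling, among them genes downstream of AKT such as AKT1S1. INSR and RICTOR were on this list and also on that of the FOXO targets. Of the 36, 31 had a mean of at least 1 FPKM, and 12 were called lower in Z138 and 9 higher in limma. These shares were close to the 38.8% and 28.7% of all symbols. The median difference was −0.17, beside −0.12 over all symbols. PHLPP1, a phosphatase that switches AKT off, was at 47.3 and 43.0 FPKM for Mino, and 7.51 and 6.69 FPKM for Z138 (difference −2.51, SE 0.13, adjusted p = 1.42e-06 in limma). PIK3CD, the PI3K catalytic subunit typical of lymphocytes, was at 101 and 92.6 FPKM for Mino, and 36.4 and 39.3 FPKM for Z138 (−1.33, SE 0.13, adjusted p = 3.72e-05). PHLPP1, of a restraining role, and PIK3CD, of an activating role, were thus both lower in Z138, while 9 genes of the list were called higher. Both were chosen after their values had been seen.

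The hairpin comparison asked whether these genes differed with BTK knockdown in the same way in both lines. None of the 10 passed in limma (adjusted p = 1.00 for each), and TCL1A was the only gene with an unadjusted p under 0.05. Over all 11484 symbols, 14 passed, which is 0.122%, and 320 had an unadjusted p under 0.05. Within a line, 0 of the 10 genes differed by 1.5-fold or more on the log2(FPKM + 1) scale in either line, beside 2.16% of all symbols in Mino and 1.76% in Z138. With a pseudocount of 0.1, TCL1A passed that fold in Z138.

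In Mino the FOXO factors and their targets were all on the lower side of the control, by small amounts. FOXO1, FOXO3 and FOXO4 had log2 ratios of −0.22, −0.16 and −0.22. KLF2, PIK3IP1, CCNG2 and IRS2 had −0.18, −0.20, −0.36 and −0.20. The median of these 7 was −0.20, beside −0.01 over all symbols, of which 51.9% were below 0. The ratio of CCNG2 was the lowest of the 7, and 4.44% of all symbols had a Mino ratio at or below it. For the other 6, that share was 11.9% to 19.3%, so ratios of their size were frequent.

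In Z138 the same 7 genes were divided. FOXO1, FOXO3, PIK3IP1 and CCNG2 had log2 ratios of 0.29, 0.20, 0.24 and 0.04, and FOXO4, KLF2 and IRS2 had −0.08, −0.02 and −0.16. The median was 0.04, beside 0.03 over all symbols. FOXO1 had the highest ratio of the 10 genes, and its hairpin library held 126% of the control FPKM. FOXO4, KLF2, IRS2 and TCL1A were below 0 in both lines, and no gene of the 10 was above 0 in both. Over all 11484 symbols, 2229 were below 0 in both lines and 2648 above 0 in both. Of the 10 genes, 6 had opposite signs, which is 60.0% beside 56.2% of all symbols.

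**Figure D4:**
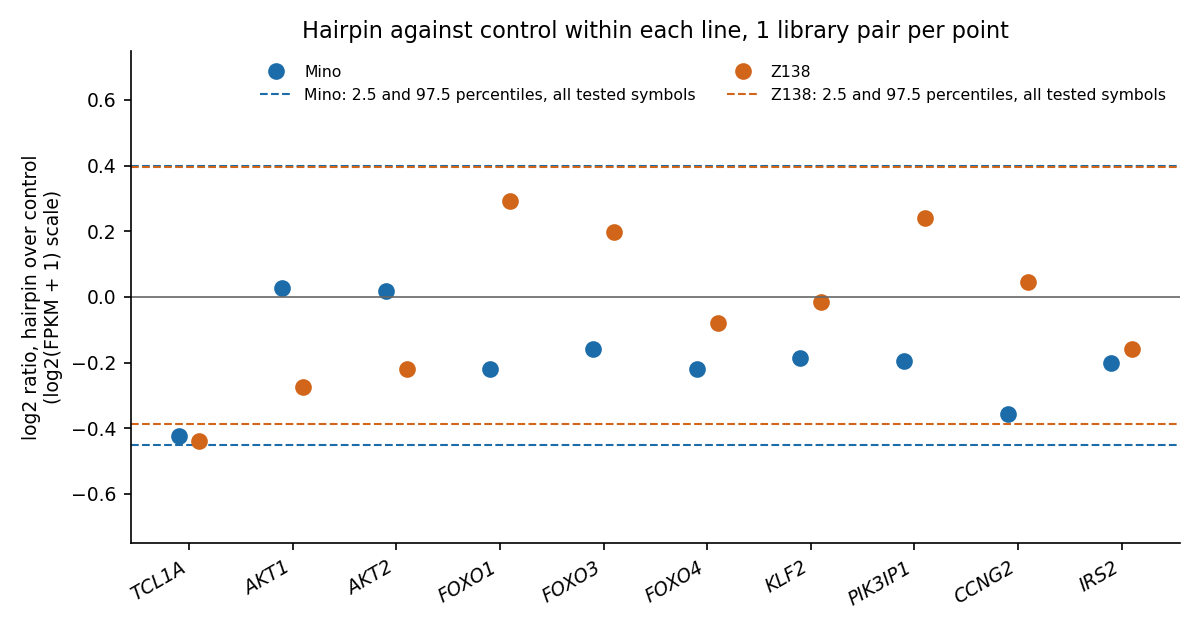
Log2 ratio of hairpin to control on the log2(FPKM + 1) scale for the 10 genes in Mino (blue) and Z138 (orange), 1 pair of libraries per point, with dashed lines that cut off the lowest and the highest 2.5% of all 11484 symbols. TCL1A is the only gene outside a band, at −0.44 in Z138 where the lower line is at −0.39, and its Mino value of −0.42 lies inside the Mino line at −0.45.

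GC content moved with the Z138 ratios. Over the 10794 symbols with a transcript sequence, the Spearman rho between GC content and the ratio was −0.56 in Z138 and 0.11 in Mino, a relation across genes within pairs of libraries, with no p. The 6 genes below 0 in Z138 (TCL1A, AKT1, AKT2, FOXO4, KLF2, IRS2) had a GC content of 56.0% to 65.2%, and the 4 above 0 (FOXO1, FOXO3, PIK3IP1, CCNG2) had 40.8% to 52.4%, so the 2 groups did not overlap in GC content. Of the relatives, FOXO6 (70.6% GC, ratio −0.28) lay on the same side, while MTCP1 (46.6% GC, ratio −0.36) did not. With the GC and length trends removed, the Z138 ratios were 0.22 for FOXO1, 0.16 for FOXO3, 0.27 for PIK3IP1, −0.21 for AKT1, −0.15 for AKT2 and −0.35 for TCL1A. KLF2 moved from −0.02 to 0.09 and CCNG2 from 0.04 to −0.10. In Mino the corrected ratios of the 7 FOXO factors and targets stayed below 0, with a median of −0.20. Whether the remaining differences reflect the hairpin or the libraries was not tested.

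**Figure D5:**
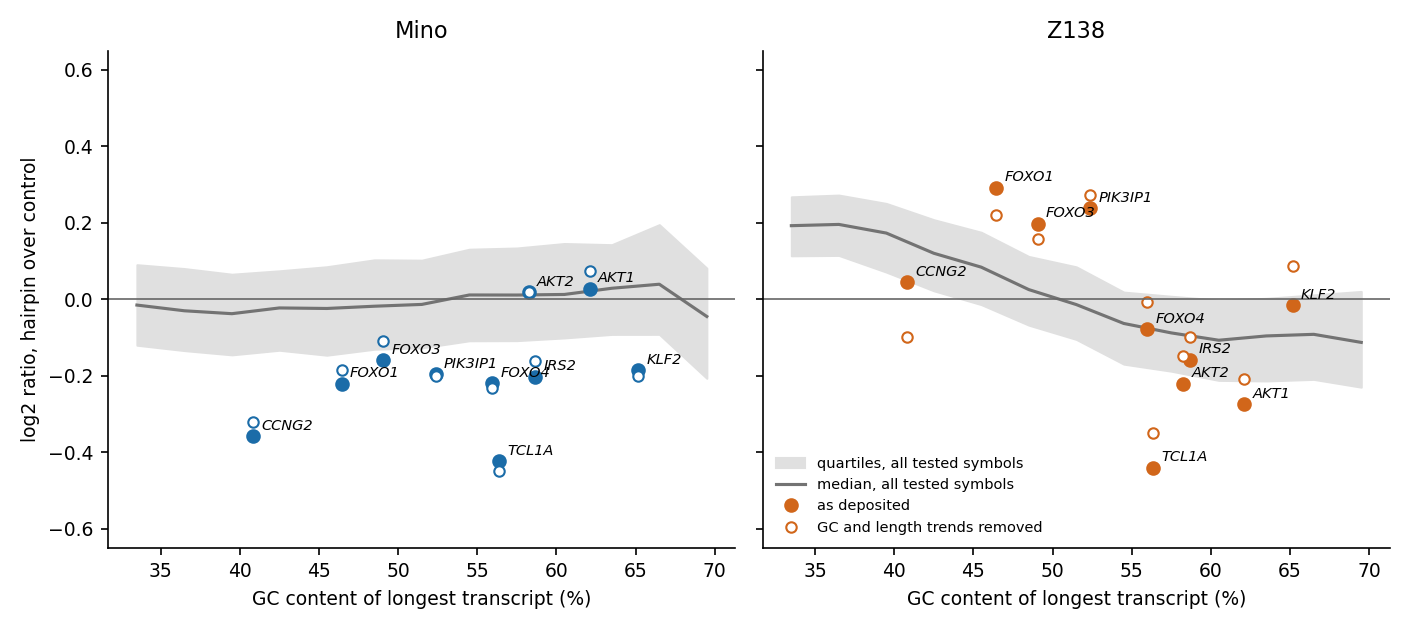
Log2 ratio of hairpin to control against the GC content of the longest transcript in Mino (left) and Z138 (right), for the 10 genes as deposited (filled) and with GC and length trends removed (open), with the median and quartiles of all tested symbols in grey. In Z138 the grey median falls with GC content, and the 4 genes above 0 lie at 40.8% to 52.4% GC and the 6 below 0 at 56.0% to 65.2% GC.

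Among the 33 other FOXO targets with a mean of at least 1 FPKM, none passed for the hairpin in limma (2 had an unadjusted p under 0.05, GADD45B and BNIP3). In Mino 25 of the 33 were below 0, with a median log2 ratio of −0.20, and in Z138 15 were below 0, with a median of 0.02. Over all symbols, 51.9% were below 0 in Mino and 43.7% in Z138. In total 3 of the 33 passed 1.5-fold in Mino, all of them lower (TXNIP, C10orf10, BNIP3), and 0 did in Z138, beside 2.16% and 1.76% of all symbols. TXNIP, a glucose-responsive inhibitor of thioredoxin, was at 111 and 22.2 FPKM for Mino, and 56.4 and 79.4 FPKM for Z138, log2 ratios of −2.27 and 0.49. The targets with the largest shared ratios were lower in both lines. GADD45B, a stress gene also induced by NF-kB, was at 50.8 and 37.9 FPKM for Mino, and 95.8 and 70.5 FPKM for Z138 (mean −0.42, SE 0.12, adjusted p = 1.00 in limma). KLF6 had −0.36 and −0.16, and the autophagy gene GABARAPL1 had −0.23 and −0.20. The cell cycle inhibitor gene CDKN1B had ratios of 0.12 and 0.10.

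Of the PI3K and AKT signalling genes, 20 of 31 were below 0 in Mino (median −0.13) and 14 in Z138 (median 0.02), and none passed in limma (1 had an unadjusted p under 0.05). Among the largest shared ratios were those of AKT1S1, an AKT substrate that restrains mTOR (−0.23 and −0.28) and RHEB, the small GTPase that switches mTOR on (−0.18 and −0.47). PIK3CA, PIK3CD and PIK3CG, which encode PI3K catalytic subunits, had −0.42, −0.13 and −0.28 in Mino and 0.14, 0.11 and 0.44 in Z138.

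A list of 23 genes held mainly regulators of FOXO proteins, and also FOXO6 itself and the forkhead factor gene FOXM1. Of these, 21 had a mean of at least 1 FPKM, and none passed in limma (1 had an unadjusted p under 0.05, SGK1). In Mino 16 were below 0 (median −0.15) and in Z138 9 were (median 0.06). Opposite signs in the lines were found for 17, which is 81.0% beside 56.2% of all symbols. With the trends removed, 12 of the 21 had opposite signs, beside 5934 of the 10794 symbols with a GC content. SGK1, a kinase related to AKT that also phosphorylates FOXO factors, was at 15.6 and 10.3 FPKM for Mino, and 0.820 and 0.403 FPKM for Z138, with an average log2 ratio of −0.46 that did not pass (SE 0.14, adjusted p = 1.00 in limma, below 0 in 2 of 2 lines). Like TCL1A, it was far higher in Mino, with a difference of −3.10 (SE 0.14, adjusted p = 9.06e-07 in limma). YWHAH, which encodes a 14-3-3 protein that holds FOXO factors in the cytoplasm, had ratios of −0.34 and −0.08, and the methyltransferase gene PRMT1 had −0.08 and −0.12. SGK3 was under the filter, at 1.78 and 0.648 FPKM for Mino, and 0.716 and 0.215 FPKM for Z138. The readthrough symbol C8orf44-SGK3, which overlaps it, was at 0.707 and 2.13 FPKM for Mino, and 0.463 and 1.32 FPKM for Z138. The 2 symbols moved in opposite directions in each line, so the SGK3 level is uncertain.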

How the data were processed

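Total RNA was sequenced after Illumina TruSeq library preparation, per the labels' protocols. The authors deposited 1 table of FPKM values with 1 column per library, per the file headers. Per the submitters' processing notes, TopHat and the hg19 build were used, and for the program that made FPKM and its annotation the sources used here give nothing. Each column was matched to its library by line and vector. Low values did not give whole reads, so no counting interval is printed.

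Values were analysed as log2(FPKM + 1), which understates changes of low genes. limma 3.58.1 in R 4.3.3 fitted cell line and hairpin as additive terms over 4 libraries with a mean-variance trend, for 11484 symbols averaging 1 FPKM or more. Benjamini-Hochberg adjusted p-values were called under 0.05. The line paired the libraries, each line having its own control. The fit left 1 residual degree of freedom, so a gene's own error reflects how differently the 2 lines responded, not the spread between cultures. limma combined that error with the trend over all symbols, which counted as 6.885 degrees of freedom. Each SE thus rests mostly on the other symbols. The fit was tested on simulated data. Ratios within a line have no test. A difference in response between lines could not be tested, since an interaction term leaves no residual degree of freedom.

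The 10 genes, 3 pathway lists, cell type markers and naming rule were chosen with earlier results of these data known. Named are the 10 genes, their relatives, the checks, and list genes called, past 1.5-fold in both lines or with the 3 largest shared ratios at 5 FPKM or more; for genes 2-fold apart between lines in both vectors, the 3 nearest profiles. Some genes that this rule names are not reported here. Others are marked as chosen after their values were seen, as were TXNIP, C10orf10, BNIP3, CDKN1B, SGK3 and the PI3K subunit genes in the hairpin comparison. GC content and length came from the longest GENCODE release 29 transcript (94.0% of tested symbols matched), and cubic spline trends of both were removed in each line as an alternative. Promoter stretches came from RefSeq on GRCh38.p14, with all 10 genes matched by symbol. Alternatives were pseudocount 0.1, other filters, a constant variance prior, no line block and, chosen after seeing the data for the fits, libraries at the same median and each library left out.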

Additional observations from a re-analysis of the deposited data

Results flagged for a closer look

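In 6 of the 10 genes the ratio of hairpin to control had opposite signs in the 2 lines, each line having 1 pair of libraries. Opposite signs were found in 56.2% of all symbols, and the differences were not tested. The Z138 ratio minus the Mino ratio, on the log2 scale, was 0.51 for FOXO1, 0.36 for FOXO3, 0.43 for PIK3IP1 and 0.40 for CCNG2. It was −0.30 for AKT1 and −0.24 for AKT2. With the GC and length trends removed, CCNG2 was below 0 in both lines (−0.32 and −0.10), KLF2 had opposite signs (−0.20 and 0.09), and the other 5 kept opposite signs.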

How the results depend on the processing

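The count of symbols passing for the hairpin, 14 as reported, was 2 with no filter on low values, 9 at a mean of at least 5 FPKM, 28 without symbols listed at 0, 7 with GC and length trends removed, 0 without the line block (9 at an unadjusted p under 0.05) and 42 with the libraries at the same median. The causes were not tested. Of the 10 genes, 0 passed for the hairpin under any of these, or with a pseudocount of 0.1 or a constant variance prior, and the 78 values so obtained kept their direction. FOXO3 and FOXO4 are under the 5 FPKM filter. Within Z138, 1 of the 10 passed 1.5-fold with a pseudocount of 0.1 (TCL1A), because 1 is large beside its level. For Z138 against Mino, counts stayed within 1.5 times of 7745 in every setting run, leaving out each library in turn included, and the calls of the 10 genes stayed the same except for FOXO3 and IRS2 at the same median. Leaving out a library leaves no test of the hairpin. Read depth is unknown, so the precision of low values such as TCL1A in Z138 cannot be given.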
